A study of Xenopus laevis with 4 samples.

Results

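The 5778 regions described here lie on chromosomes 5L and 5S of the frog Xenopus laevis, the homeologous (L and S) versions of one ancestral chromosome. They are the rows of the deposited list of common ETS2 regions that carry either chromosome name, 3220 on 5L and 2558 on 5S, out of 61137 in all (9.45%). No measured value entered the choice. ETS2 binding was mapped by chromatin immunoprecipitation and sequencing (ChIP-seq) in whole embryos at mid-gastrulation (stage 11.5), all injected with 750 pg of mRNA for ETS2 with a triple FLAG tag. There are 2 libraries precipitated with a FLAG antibody, called library 1 (A in the labels) and library 2 (C), and 2 inputs without antibody (D, tied to library 1, and F, tied to library 2, by shared peak files). The tagged protein was therefore supplied from injected mRNA in every library, inputs included, and uninjected embryos were not analysed here. Whole embryos mix all cell types of the gastrula, and the labels do not say whether the libraries came from separate clutches.

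ETS2 belongs to the ETS family of transcription factors, whose DNA-binding domain recognises sites with a GGAA core. ETS proteins are phosphorylated by MAP kinases and act downstream of FGF signalling, which helps to specify mesoderm in the frog gastrula. Xenopus laevis is an allotetraploid, so its chromosomes come as an L and an S version inherited from different ancestral species, and a binding site can be kept, lost or moved independently on each version. The sources used here do not name the genome build of the files. No gene, motif or sequence was assigned to any region, and positions are those of the deposited lists, counted from 1. Relative positions are percentages of the chromosome's length, taken as the end of its last peak in any list (159.4 Mb for 5L, 136.5 Mb for 5S).

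Every one of the 5778 regions held a peak of both libraries, as did all 61137, since the list is of regions common to both. On 5L, library 1 had 3584 peaks and library 2 had 8649, and on 5S they had 2905 and 6901. Of the library 1 peaks, 97.4% on 5L and 95.7% on 5S lay inside a common region, and of the library 2 peaks 37.3% and 37.2% did. On the other 16 chromosomes the shares were 96.7% (4S) to 97.7% (4L) in library 1 and 37.0% (6S) to 41.6% (9_10L) in library 2. In library 1 the share of 5S was thus the lowest of the 18, though its counting interval overlapped that of 4S. The strength of a region is the value of its highest peak in each library, ranked as a percentile within that library's own list. The files do not name this value, which was read from its lower limit as the −log10 of p or of q. Values of different libraries are not comparable in size, so percentiles were averaged. The sequencing depth is unknown. Intervals given below are 95% intervals for counting error only. Neighbouring regions are not independent, and 1 chromosome pair allows no test over chromosomes, so no p-value is given.

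ETS2 regions were less dense on both chromosomes than on most others, and 5S had the lowest density of the 18. There were 20.2 regions per Mb on 5L (19.5 to 20.9) and 18.7 on 5S (18.01 to 19.5). The other 16 chromosomes had 19.2 (6S) to 27.6 (9_10L), with a median of 21.8, and 5L had rank 5 from the lowest. The interval of 5S overlapped those of 6S, 1S and 2S, so its place below these 3 is within counting error. That of 5L overlapped those of 1L, 2L, 3S, 4S, 6L, 1S, 2S and 6S, so the rank of 5L among these is within counting error as well. Each library alone also put 5S lowest, with 21.3 peaks per Mb in library 1 and 50.5 in library 2. Chromosome 1S was next, at 21.5 and 51.4. For 5L these densities were 22.5 and 54.3. Common regions covered 1.05% of 5L and 0.976% of 5S, and the latter is the lowest share of any chromosome, with 1S next at 0.993%.

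Regions were 1.08 times as dense on 5L as on 5S (1.02 to 1.14). The ratio was 1.06 in the list of library 1 (1.01 to 1.11) and 1.07 in that of library 2 (1.04 to 1.11). Library 2 peaks outside common regions gave 1.07 as well (1.03 to 1.12). Pair 5 had rank 5 of the 9 pairs in this ratio, which ran from 0.980 (pair 7) to 1.18 (pair 3) in the other 8.

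**Figure D1:**
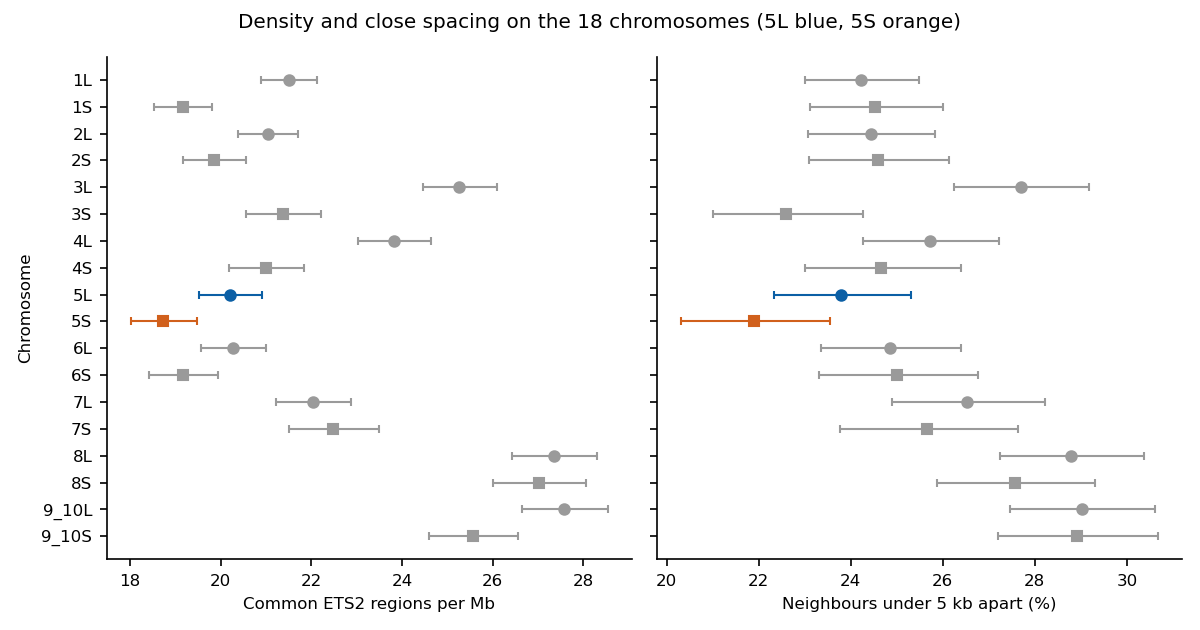
Common ETS2 regions per Mb (left) and the percentage of neighbouring regions under 5 kb apart (right) on each of the 18 chromosomes, with circles for L, squares for S and bars for 95% counting intervals. Chromosome 5S is lowest in both panels, at 18.7 per Mb and 21.9%, and 5L stands at 20.2 per Mb and 23.8%.

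Among strong regions the L to S ratio was higher than over all regions, though within counting error of it. Regions at or above the 90th percentile of both lists numbered 323 on 5L, or 10.03% (9.01 to 11.1%), and 223 on 5S, or 8.72% (7.65 to 9.88%). Over all common regions the share was 10.4%, so 5L was near the background and the interval of 5S lay below it. Per Mb this gave 2.03 strong regions on 5L and 1.63 on 5S, a ratio of 1.24 (1.04 to 1.48). Chromosome 5S was again lowest of the 18, with 1S close to it at 1.66. The intervals of this ratio and of the ratio over all regions overlap. Pair 5 had rank 3 of the 9 pairs in the ratio of strong regions, which ran from 1.03 (pair 2) to 1.31 (pair 1) in the other 8. It was above the ratio over all regions in pairs 1, 3, 6, 7, 8 and 9_10 as well, and below it in pairs 2 and 4. Library 1 largely set this class of strong regions. Of the regions at or above its 90th percentile, 93.9% on 5L and 91.8% on 5S were so in library 2 as well. The other way round the shares were 37.2% and 35.8%. In 4 equal classes of strength over all common regions, the L to S ratio was 1.09 in the lowest, 1.08 and 1.02 in the middle classes and 1.14 (1.02 to 1.27) in the highest, so it did not grow evenly with strength.

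The medians of strength differed by less than their counting error between the chromosomes. The median of the averaged percentiles was 66.3 on 5L (64.9 to 67.5) and 66.4 on 5S (64.9 to 67.8), with interquartile ranges of 47.3 to 82.6 and 47.5 to 81.9. By library, the medians on 5L were 54.3 in library 1 and 80.1 in library 2. On 5S they were 55.1 and 79.8. The median peak value in library 1 was 9.41 on 5L and 9.73 on 5S, and in library 2 it was 35.5 and 34.6. Ranks of the regions in both libraries went together, with a rank correlation of values of 0.77 over the 3220 regions of 5L and 0.75 over the 2558 of 5S. Both values of a region come from the same merged interval, and wider regions had higher averaged percentiles (rank correlation 0.57 on 5L and 0.58 on 5S). The part of width in the agreement between libraries was not tested.

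The strongest region of the pair was on 5L at 23993430 to 23994807, 1378 bp wide, with its highest peak at 125 in library 1 and at 295 in library 2. It had rank 5 of all 61137 common regions and had no neighbour within 20.4 kb. The next on 5L was at 17577603 to 17578726, with values of 118 and 217, and it lay 1437 bp from its nearest neighbour in a run of 5 close regions. The third, at 126616381 to 126617460, had values of 101 and 220. The fourth, at 26214416 to 26215611, had values of 111 and 207 and opened a run of 7 regions. All 8 strongest regions of 5L had at least 81.9 in library 1 and 186 in library 2, and 6 of them belonged to runs of neighbours under 5 kb apart. Each lay in a 100-kb window with 6 to 9 regions, so none was in one of the densest windows described below.

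On 5S the strongest region was at 6148031 to 6149034, 1004 bp wide, which reached 107 in library 1 and 238 in library 2. It had rank 18 of 61137. The second, at 97822070 to 97823599, was 1530 bp wide and had values of 118 and 200, with its nearest neighbour 41.3 kb away and 169 kb without a region on its other side. The third, at 111108812 to 111110249, was the only common region of its 100-kb window and had values of 99.4 and 215. The eighth, at 46726010 to 46726617, had values of 79.5 and 177 and lay in a window with 14 regions. Of the 8 strongest on 5S, 4 had no neighbour under 5 kb away and 4 belonged to runs of close neighbours. The former were not all isolated. The seventh, at 73744999 to 73746134, had its nearest neighbour 12.3 kb away and lay in a window with 10 regions. Strong regions of this pair thus occurred both with and without close neighbours.

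Regions had similar median widths on both chromosomes, and the counting intervals of their shares of wide regions overlapped. The median width was 452 bp on 5L (interquartile range 359 to 609) and 445 bp on 5S (349 to 610). Widths over 1 kb were found in 159 regions of 5L, or 4.94% (4.22 to 5.74%), and 157 of 5S, or 6.14% (5.24 to 7.14%). Over all common regions the share was 5.56%, which lies inside both intervals. The widest region of 5S, at 6784793 to 6788712, was also the widest of all 61137, at 3920 bp. It held 5 peaks of library 1 and 1 of library 2, with highest values of 47.9 and 61.1. The widest of 5L, at 23122254 to 23125293, measured 3040 bp and held 6 peaks of library 1 and 1 of library 2, with highest values of 22.4 and 59.4. Width came with several library 1 peaks merged into 1 region. Such regions, with 2 or more library 1 peaks, were 239 on 5L (7.42%, 6.54 to 8.38%) and 200 on 5S (7.82%, 6.81 to 8.93%), against 7.64% of all common regions, and the intervals of both include the background. Their widths were a median of 883 bp with 2 peaks and 1388 bp with 3 or more on 5L, and 916 and 1469 bp on 5S.

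Neighbours were further apart at the median on 5S than on any other chromosome, and close neighbours were a little less frequent on 5L and 5S than over all chromosomes. The median distance from a region to the next was 20.6 kb on 5L (19.2 to 22.2) and 23.1 kb on 5S (20.9 to 24.95). The other 16 chromosomes had medians of 13.5 kb (8L) to 22.0 kb (1S), the latter inside the interval of 5S. Neighbours under 5 kb apart made up 766 of 3219 distances on 5L, or 23.8% (22.3 to 25.3%). On 5S they made up 560 of 2557, or 21.9% (20.3 to 23.6%), the lowest share of the 18 chromosomes. Over all chromosomes it was 25.6%, which lies above both intervals. Library 1 alone gave 29.7% on 5L and 27.8% on 5S, and library 2 alone gave 38.9% and 37.7%, with 5S lowest of the 18 in each list.

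By class of distance, 5S was furthest below the other chromosomes from 2 to 5 kb. Of its distances, 8.96% were from 2 to 5 kb (7.88 to 10.1%), against 10.4% on 5L and 11.3% over the other 16 chromosomes. Distances under 1 kb were nearer to the others, at 7.86% on 5S, 7.98% on 5L and 8.81% elsewhere. At the long end, 11.1% of 5S distances were from 100 to 200 kb (9.95 to 12.4%), against 9.10% on 5L and 8.30% elsewhere. A lower density by itself lengthens distances, and how far it accounts for these shares was not tested.

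**Figure D2:**
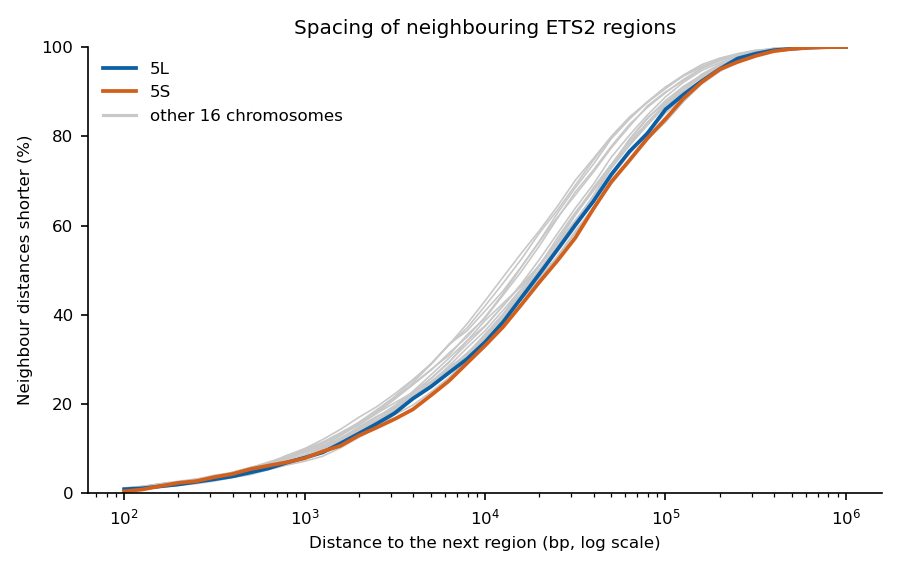
Percentage of distances between neighbouring common regions that are shorter than the distance on the horizontal axis (bp, log scale), for 5L (blue), 5S (orange) and each of the other 16 chromosomes (grey). At 10 kb the 5S curve is the lowest of the 18, at 33.1%, with 5L next at 33.9%.

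The longest stretches without a common region reached 777 kb on 5L, at 3280799 to 4058035, and 871 kb on 5S, at 90583641 to 91454493. Among the longest stretches of the 18 chromosomes these had rank 13 and 8, and the other 16 had 588 kb (4L) to 954 kb (6L). The next on 5L was 749 kb long, at 140092252 to 140841662, and on 5S 770 kb, at 38053435 to 38823686. These stretches were not empty of peaks. The longest on 5L held 10 peaks of library 2 and 1 of library 1, and the longest on 5S held 14 peaks of library 2 and none of library 1. In the 4 longest of each chromosome library 2 had 6 to 18 peaks, with highest values of 16.6 to 40.2. Stretches over 200 kb added up to 46.9 Mb on 5L (157 stretches) and 41.7 Mb on 5S (128). They made up 4.88% and 5.01% of distances, against 2.51% (8S) to 5.51% (1S) on the other 16 chromosomes. Windows of 100 kb without a region made up 27.3% of 5L (25.1 to 29.5%) and 29.9% of 5S (27.5 to 32.4%). The share of 5S was the highest of the 18, but that of 4S was 29.7% (27.1 to 32.3%), within counting error.

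Most regions stood alone, and few formed longer runs. With neighbours under 5 kb apart joined into runs, 1957 regions of 5L (60.8%) and 1610 of 5S (62.9%) had no such neighbour. The others formed 497 runs on 5L and 388 on 5S, of which 344 and 295 were pairs. Runs of 5 or more numbered 33 on 5L and 16 on 5S. Regions in these longer runs were more often strong in both lists. The share at or above the 90th percentile of both was 7.82% for lone regions of 5L (6.67 to 9.10%) and 19.4% in runs of 5 or more (13.9 to 25.8%). On 5S the shares were 7.64% (6.39 to 9.05%) and 18.4% (11.3 to 27.5%). Pairs had 11.6% on 5L and 7.63% on 5S, and over all common regions the share was 10.4%. At the median the intervals overlapped. The median averaged percentile on 5L was 65.4 (64.2 to 67.1) for lone regions and 67.5 (62.9 to 74.3) in runs of 5 or more. On 5S it was 66.4 (64.5 to 67.9) for lone regions and 73.4 (67.5 to 79.8) in runs of 5 or more. Regions in these runs were also wider, with a median of 513 bp against 436 bp on 5L and 597 against 432 bp on 5S, and the part of width in this was not tested. Runs were not counted on the other chromosomes, so whether these values are particular to this pair was not tested.

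The longest runs were 8 regions on 5L, reached by 3 runs, and 9 on 5S, reached by 2. The first of 5L, at 17282987 to 17295769, packed its 8 regions into 12.8 kb, with 4 of them at or above the 90th percentile of both lists and peak values up to 77.0 in library 1 and 211 in library 2. The other runs of 8, at 23268873 to 23285863 and at 30924474 to 30939795, held 1 and 2 such regions. The longest runs of 5S were at 45988551 to 46010683 and at 98085237 to 98110841, over 22.1 and 25.6 kb, each with 1 such region. A run of 8 on 5S, at 12127046 to 12139451, spanned 12.4 kb and had 3.

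Dense windows were rare on both chromosomes. Tiled windows of 100 kb with 10 or more regions numbered 17 of 1594 on 5L (1.07%) and 11 of 1366 on 5S (0.805%), against 1.83% over all chromosomes. The share of 5S was the lowest of the 18, with 1S next at 0.888%, and that of 5L had rank 3 from the lowest. These places rest on small counts, with 11 windows on 5S against 16 on 1S. With windows shifted by 50 kb, 5L again had 17 dense windows but 5S had 15, so the count of 5S depends on where the tiling starts. The other chromosomes were not counted with shifted windows. How far lower density accounts for these shares was not tested. The densest window of each held 17 regions, at 23100001 to 23200000 on 5L and at 6700001 to 6800000 on 5S. On 5L the next were at 23800001 to 23900000 with 15 regions, and at 23200001, 29800001, 119300001 and 158300001 (each 100 kb long) with 14. On 5S the next were at 105900001 with 15, 46700001 with 14, 12100001 with 12 and 70900001 with 11. The sixth place on 5S, taken here by the window at 58500001, was shared by 6 windows with 10 regions. Each chromosome's widest region lay in its densest window, as did the second widest of 5S and the third widest of 5L.

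Regions in dense windows had higher percentiles than the others at the median, though not in every window. The median averaged percentile in windows with 10 or more regions was 72.2 on 5L and 71.3 on 5S, against 65.9 and 66.3 outside them. The share of regions at or above the 90th percentile of both lists was 6.48% in windows with 1 to 2 regions and 16.7% in dense windows on 5L, and 5.84% and 15.5% on 5S. Regions in dense windows were also wider, with a median of 519 bp against 447 bp outside on 5L and 525 against 442 bp on 5S. The part of width in their percentiles was not tested, and strength in dense windows of the other chromosomes was not compared. Single windows varied, and 4 of 17 dense windows on 5L and 5 of 11 on 5S had a median percentile below that of the regions outside. The lowest of these was at the far end of 5L, at 158300001 to 158400000. Its 14 regions had a median percentile of 30.4, none was at or above the 90th percentile of both lists, and library 1 had 17 peaks there and library 2 had 30.

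With each chromosome cut into 10 equal stretches, the densest was at 10 to 20% of 5L. It held 435 regions, or 27.3 per Mb (24.8 to 30.0), where the other stretches of 5L had 17.2 to 21.6. Its share of strong regions was 14.0%, against 6.55 to 12.2% in the others. Library 1 alone had 30.9 peaks per Mb there and library 2 had 72.5, both the highest of the 10 stretches. On 5S the stretch from 0 to 10% was densest, with 319 regions or 23.4 per Mb (20.9 to 26.1), and that from 80 to 90% was sparsest, with 14.8 (12.8 to 17.0). The L chromosome was denser than the S chromosome in 8 of 10 stretches. The exceptions were 0 to 10% (18.2 per Mb on 5L, 23.4 on 5S) and 30 to 40% (20.4 and 21.2). Counting intervals of 5L and 5S lay apart only in the stretches at 0 to 10%, 10 to 20% and 80 to 90%, with 5L higher in the last 2 of these. In the other stretches they overlapped. With 5S reversed, 5L was likewise denser in 8 of 10, so this count does not depend on matched positions.

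**Figure D3:**
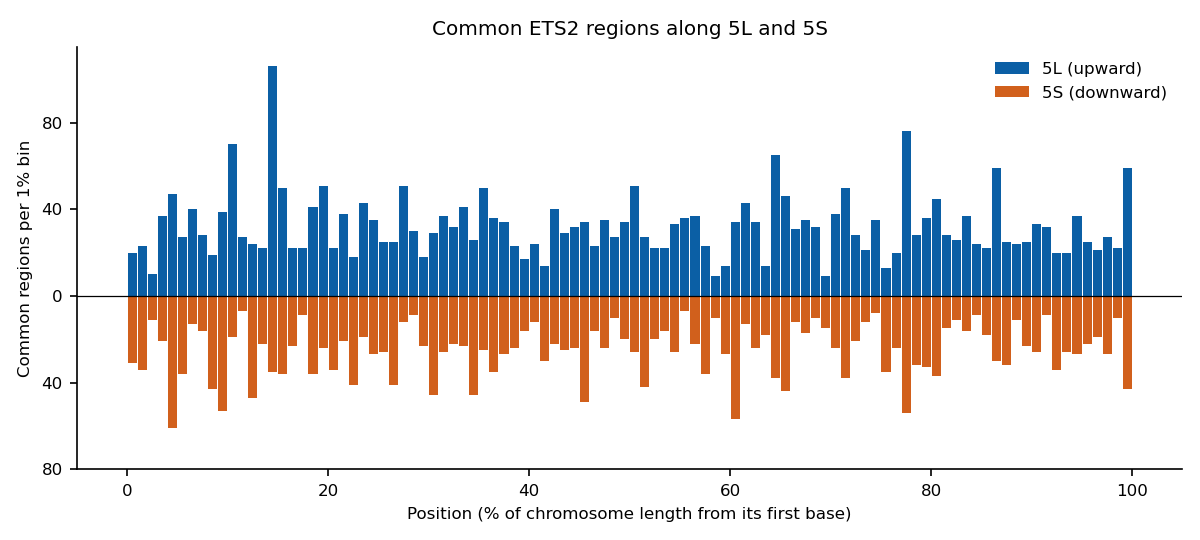
Common regions per bin of 1% of chromosome length, from the first base to the last peak, upward for 5L (blue) and downward for 5S (orange). The fullest bin is bin 15 of 5L, with 106 regions, and the bin at 77 to 78% is high on both, with 76 on 5L and 54 on 5S.

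In counts of regions over their whole length, 5L and 5S resembled each other weakly in the same orientation and not with 5S read backward. With counts in 100 equal bins, the rank correlation was 0.20 in the same orientation and −0.01 in the reversed one. Among the 9 pairs this was rank 6 in the same orientation, where pair 6 had the highest value (0.44) and pair 8 the lowest (−0.01). Against the 8 S chromosomes that are not its partner, 5L had −0.15 (6S) to 0.16 (2S) in the same orientation and −0.06 to 0.08 reversed. Against the 8 other L chromosomes, 5S had −0.19 (3L) to 0.12 (9_10L) and −0.22 to 0.04. With 100 bins the partner's value was above each of these, by a small margin over 2S. It was 0.42 with 50 bins, 0.15 with 200 bins and 0.16 to 0.18 in the list of 1 library, and the other chromosomes were not compared at those settings. Bins of one chromosome share library and depth and are not independent, so these values are descriptions. For the strength of regions, the rank correlation of median percentiles over 50 bins was −0.09 in the same orientation and 0.19 reversed. Counts over 50 bins gave 0.42 and −0.015, so the orientation with the higher value differed between counts and strength.

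The resemblance differed along the chromosomes. With each cut into 5 equal stretches of 20 bins, the rank correlation at 60 to 80% of the length was 0.41 with 5S as it lies and −0.01 with the 5S stretch flipped in place. At 80 to 100% the values were 0.31 and 0.08. At 0 to 20% the order was the opposite, with 0.21 as it lies and 0.67 flipped in place. The stretch from 20 to 40% gave −0.29 and −0.12, and that from 40 to 60% gave 0.06 and 0.26. Over the 9 pairs, 0.67 was the highest of 45 values flipped in place, the next being 0.44 in the first 20% of pair 1. Among all 90 values of both orientations it had rank 3. The stretch was picked out after its value was seen, so this place is a description. The list of library 1 alone gave 0.66 in the first 20% flipped and that of library 2 gave 0.55. These lists are not independent of the common one, since 97.4% of library 1 peaks on 5L and 95.7% on 5S lay inside common regions. The value depends on where the flipped stretch ends, since another end pairs other bins. With the first 25% of both chromosomes it was 0.13, and with the first 16.7% it was −0.16.

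**Figure D4:**
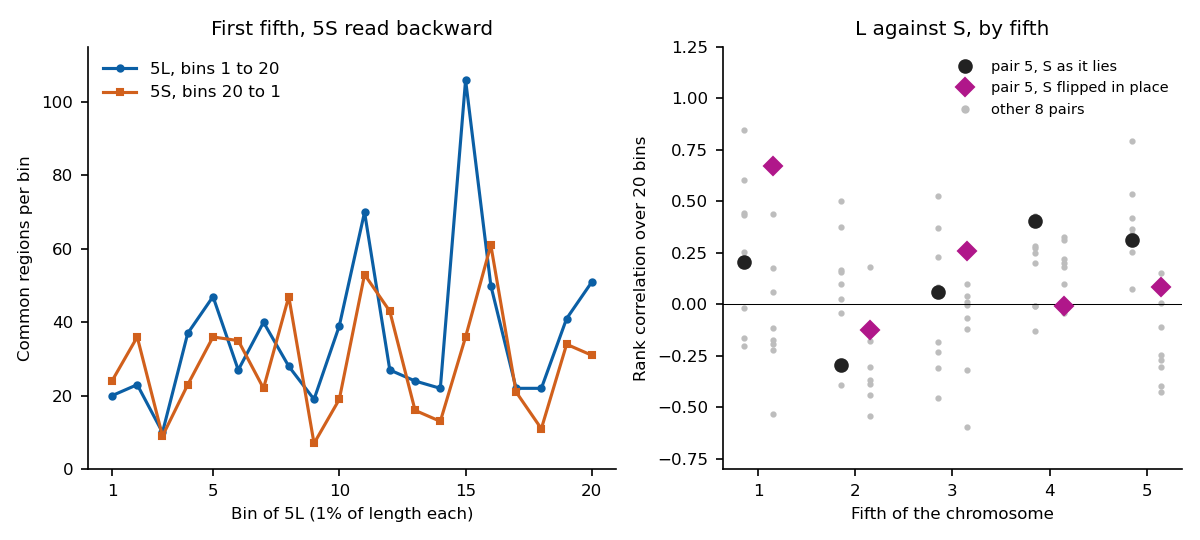
Left, common regions per 1% bin in the first 20% of 5L (blue, bins 1 to 20) and of 5S read backward (orange, bins 20 to 1). Right, rank correlation of L and S counts over 20 bins in each of 5 equal stretches, for pair 5 with S as it lies (black circles) or flipped in place (magenta diamonds) and for the other 8 pairs (grey). In the first stretch pair 5 stands at 0.21 as it lies and 0.67 flipped.

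Between 70 and 80% of the length, dense windows of 5L and 5S lay near each other in relative position. This stretch was singled out from the matches and was not set in advance. The 5L window at 71.8% (12 regions) faced a 5S window at 71.9% (10 regions), that at 74.9% (14) faced 75.1% (10), and those at 77.1% (10) and 77.2% (13) faced 77.6% (15). The positions differed by at most 0.513% of the length. The 5S window at the very same relative place held 9 regions for the 5L window at 71.8%. For those at 74.9, 77.1 and 77.2% it held 0, 0 and 1. Further on, the 5L windows at 86.1% and 99.4% and the 5S window at 94.4% had no dense counterpart within 2%. Of all dense windows, 8 of 17 on 5L and 6 of 11 on 5S had a dense window of the partner within 2% of their relative position. With 5S reversed as a whole, 3 and 2 did. A reach of 2% to each side of every dense window takes in a large part of the chromosome, so matches can arise without any resemblance. How many would do so was not computed, and these counts are descriptions. In the other 8 pairs, 55.4 to 82.6% of dense windows had such a counterpart in the same orientation and 41.9 to 68.0% reversed, from more dense windows per pair. Pair 5 was below these ranges in both, with 17.9% reversed.

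In the first 20% a chosen pair of landmarks came in the opposite order. On 5L a run of 8 regions at 10.8% came first, followed by the densest window at 14.5%. On 5S the densest window came first, at 4.94%, followed by a run of 8 regions at 8.89%. Run and window were 5.86 Mb apart on 5L and 5.39 Mb on 5S. The other runs of 8 on 5L, at 14.6% and 19.4%, come after its densest window, as the run does on 5S, so the opposite order holds for the chosen run alone. Some windows there also matched as the chromosomes lie. A 5L window with 11 regions, at 4.93%, faced the densest window of 5S. The 5L windows at 10.76% and 10.82% lay within 2% of the 5S window at 8.90%. The 5L window at 10.82% holds the chosen 5L run, and the 5S window at 8.90% holds the 5S run. These runs thus also matched as the chromosomes lie. The landmarks in opposite order were singled out after their positions were seen.

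Read from its far end, the 5S run of 8 had 3 strong regions at distances near those of strong regions in the 5L run. Read backward, the second region of 5S lay 1.37 kb from the run's first region, was 663 bp wide and reached 36.9 in library 1 and 142 in library 2. The second of 5L lay at 1.23 kb, was 670 bp wide and had values of 36.0 and 176. Further along, the strongest region of the 5S run lay at 7.21 kb (678 bp, values of 68.7 and 152). The strongest of 5L lay at 7.04 kb (760 bp, 77.0 and 211). Each was followed by another strong region, at 8.41 kb on 5S (869 bp, 34.4 and 157) and 8.60 kb on 5L (759 bp, 48.0 and 188). The ends differed, since the last region of 5L, at 12.3 kb, had values of 49.3 and 125 and the last of 5S read backward, at 11.9 kb, had 4.51 and 36.5. The regions between also differed in place and strength. Read as it lies, the 5S run had its 3 strong regions at 3.51, 4.71 and 10.6 kb from its first region. Those of the 5L run lay at 1.23, 7.04, 8.60 and 12.3 kb. There were 3 runs of 8 on 5L, and the run and the reading direction were chosen after the positions were seen.

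The densest windows, again with 5S read backward, each held a pair of very wide regions. On 5L these were 3040 and 2335 bp wide with centres 15.5 kb apart, in that order. On 5S, read backward, they were 3920 and 2838 bp wide with centres 10.7 kb apart, also with the wider one first. In each, several regions under 1 kb wide followed the second wide region within 5 kb. All 4 wide regions held 2 to 6 peaks of library 1 and 1 or 2 of library 2. The windows also differed. On 5L the widest region lay 21.9 kb after the first region, whereas on 5S read backward it was itself the first. Further regions over 1 kb measured 1186, 1678 and 1205 bp on 5L and 1302 bp on 5S. As 5S lies, the narrower of its very wide regions comes first. These windows are among the landmarks singled out after their positions were seen. Whether reads from similar L and S sequences were shared between these places by the mapping was not tested.

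**Figure D5:**
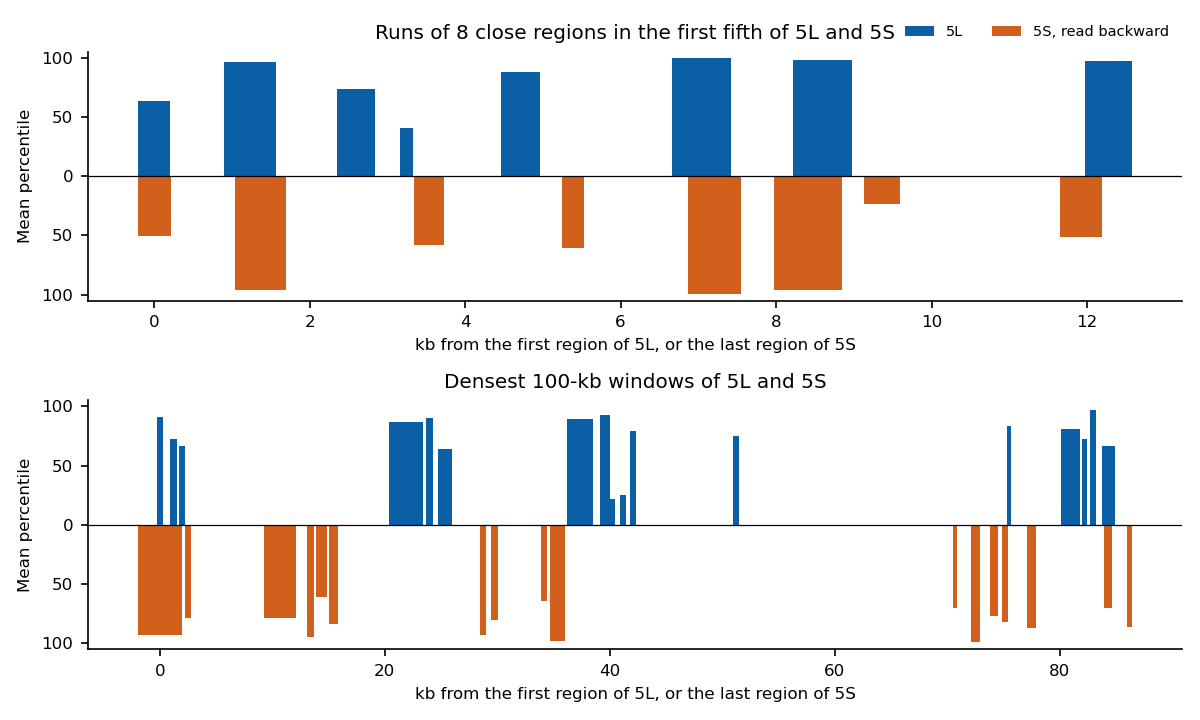
Regions of the runs of 8 (top) and of the densest 100-kb windows (bottom) in the first 20% of 5L (upward, blue) and 5S (downward, orange, read backward), as bars of the region's own width at its distance in kb from the first region drawn. Bar height is the averaged percentile of peak value. In the top panel strong regions stand near 1.2 to 1.4 kb, near 7 kb and near 8.5 kb on both, and in the bottom panel the widest bar of each is followed by a second wide one.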

How the data were processed

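The series holds 2 ChIP libraries and 2 inputs from Xenopus laevis embryos. Per the submitters' processing notes, the tools were Bowtie2 2.2.3 and MACS2, with no role or settings given. The authors deposited 1 peak list per ChIP library, with 1 value per peak, read here as a −log10 p-value (or of q) because the lowest values (1.33 and 1.31) lie just above 1.30, the −log10 of 0.05, and a list of common regions with coordinates only. Replicates are 2 ChIP libraries, and depth is unknown, so stated intervals (exact binomial or Poisson, conditional for ratios, order statistics for medians, 95%) cover counting error only. No hypothesis test was made, since 1 chromosome pair gives no replicates.

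A peak belonged to a region when they overlapped by at least 1 bp. Strength was the highest value per library as a percentile of its own list, averaged over both lists. Distances run from the end of a region to the start of the next. Windows of 100 kb were tiled from the first base, and 10 or more regions made a window dense. Profiles were compared by Spearman's rank correlation over 100 bins. Named were, per chromosome, the 8 strongest and 4 widest regions (not all printed), the 6 densest windows, and the 4 longest runs and stretches without a region. Members and lists were chosen with earlier results of these data known. Profile correlation, the count of close neighbours, the joining into runs and the ratio interval were tested on simulated data or made examples. Strength, peak overlap, dense windows and the intervals of medians were not. Alternatives left out each library, kept stronger regions, or changed distance, windows, bins or length. Python 3.11.15, numpy 2.4.6, pandas 2.3.3, scipy 1.17.1 and matplotlib 3.10.9 were used. The table of RefSeq genes belongs to an assembly not named in the files and was not used.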

Additional observations from a re-analysis of the deposited data

How the results depend on the processing

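The L to S density ratio stayed within its counting interval in all 5 alternatives tried (1.06 to 1.08), 1 of them, without the first 20% of each chromosome, chosen after the data were seen. Shares of close neighbours on 5L and 5S were 14.5% and 13.8% among regions at or above the median strength, 13.4% and 12.9% under 2 kb, and 49.1% and 47.3% under 20 kb. With 1 library left out they were 29.7 to 38.9% and 27.8 to 37.7%. Median widths were 539 and 535 bp among stronger regions, and 226 to 281 and 221 to 276 bp in single lists, whose peaks are not merged. Dense windows numbered 2 on each chromosome among stronger regions, 27 to 231 on 5L and 23 to 183 on 5S in single lists, which hold more peaks, and 17 and 15 with windows shifted by 50 kb. Median percentiles were 54.3 to 80.1 on 5L and 55.1 to 79.8 on 5S by library, and 74.3 and 74.99 over the 55.3% and 56.1% of regions that a peak of each library covered by at least 50%.

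The correlation of 5L with 5S in the same orientation was 0.42 with 50 bins, 0.15 with 200 and 0.16 to 0.18 in single lists. Reversed, it was 0.015 among stronger regions, −0.053 without the first and last 10% of bins and −0.021 to 0.0083 in single lists. Alternatives for the first 20% were chosen after the data were seen. As it lies, the value was 0.34 among stronger regions, 0.018 with 50 bins, 0.26 with 200, 0.057 in the first 25%, 0.10 in the first 16.7%, 0.087 without the fullest bin of each chromosome and 0.078 to 0.12 in single lists. Flipped in place it was 0.75 with 50 bins, 0.53 with 200, 0.13 in the first 25%, −0.16 in the first 16.7% and 0.55 to 0.66 in single lists. No paired analysis was possible because the lists of ChIP and input libraries cannot be set against each other, inputs having no list of their own. The cause of the other shifts was not tested.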
